A study of Mus with 2 samples.

Results

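The genes followed here act in cell-cycle arrest and in the p53 stress response, and their means were compared in the kidney clusters of senescent and of young C57BL/6 mice. There are 10 of them, Trp53, Mdm2, Cdkn1a, Trp53inp1, Gdf15, Cdkn2d, Rb1, Lmnb1, Bcl2l1 and Plaur, out of the 8191 distinct genes in the authors' deposited table, and were picked by name. Whole kidneys were digested with enzymes and their cells sequenced singly from droplets, in 1 library of senescent mice and 1 library of young mice. The series states 4408 cells for the senescent group and 10895 cells for the young group. The strain is named in the series title, and the sample labels give tissue and group only. The ages, the number of mice pooled in a library and the sequencing depth are not stated in the labels or the files. "Senescent" is the submitters' name for that group and says nothing about the state of any single cell.

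The protein p53, encoded by Trp53, is a transcription factor that is kept scarce by the ubiquitin ligase Mdm2 and accumulates when DNA damage or other stress interrupts that control. Among its targets is Cdkn1a, whose product p21 inhibits cyclin-dependent kinases (CDKs). With the kinases inhibited, the retinoblastoma protein Rb1 stays bound to E2F factors and the cell does not enter S phase. Mdm2 is itself a p53 target, which closes a negative feedback loop. In the kidney, p21 is known to be induced in tubule cells after acute injury, and lasting arrest of tubule cells is a recognised feature of senescence.

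The authors' deposited table lists, in 7 clusters, the mean signal per cell of the cluster in each library, on a scale that the authors set and did not state. Which column belongs to which library was read from the sample descriptions alone. The contrast name inside the table says neither young nor senescent, so the direction of every difference below rests on those descriptions. An entry is a gene in a cluster, and only entries with an unadjusted p under 0.05 and a log2 fold change beyond 0.36 in either direction are listed, so a gene without an entry cannot be called unchanged or absent. Since each group had a single library, no spread between mice could be measured and no test between groups was possible. Every value below is therefore a mean of 1 library without an error, and the adjusted p-values of the authors' deposited table, which rest on no replicate libraries, are used as a filter only. An entry is called past both thresholds where that adjusted p is at most 0.05 and the absolute log2 fold change is at least 1, a doubling or a halving of the mean.

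The clusters carry the authors' own short names, which are PT and LOH, endo, Marco, T and B, and Neutro. They were set against marker lists, of which only members with an entry could be seen. In LOH 1 of 6 thick ascending limb markers was listed, Umod, and 2 of 3 distal convoluted tubule markers, Slc12a3 (15.5 in the senescent and 9.05 in the young library) and Pvalb (0.971 in the senescent and 2.11 in the young library). In Marco 10 of 10 macrophage or monocyte markers were listed, in T 9 of 9 T cell markers, in B 6 of 7 B cell markers and in Neutro 2 of 7 neutrophil markers, and every one of these was higher in the senescent library. In PT 13 of 14 proximal tubule markers were listed, with 6 higher and 7 lower. Endo listed 0 of 10 endothelial markers, so that name could not be checked, and 7 of 14 proximal tubule markers, which summed to 139 in the senescent and 400 in the young library. Without Kap, the other 6 of these summed to 135 in the senescent and 106 in the young library, though 5 of them were lower. The higher sum rested on Gpx3, the 1 that was higher, at 102 in the senescent and 52.3 in the young library. The neutrophil markers S100a8 and S100a9 were higher in the senescent library in all 7 clusters, wherever either was listed. Their sum was 3.21 in the senescent library in endo, where both were listed at 0 in the young library. In LOH it was 5.42 in the senescent and 0.0575 in the young library, and in PT 2.05 in the senescent and 0.629 in the young library. Another neutrophil marker, G0s2, was higher in PT and lower in Marco, T and B.

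All 10 genes had at least 1 entry, 23 entries in all of the 70 that 10 genes in 7 clusters could give, and the senescent mean was the higher in each of the 23. The fold difference ranged from 1.32 for Rb1 in T to 64.8 for Gdf15 in endo, leaving out Lmnb1 in Neutro, which was listed at 0 in the young library. Some of the large folds rested on low young means. In endo the smallest young mean above 0 was 0.0365, beside 0.159 for Gdf15 and 0.116 for Cdkn1a. In T it was 0.0172, beside 0.0364 for Mdm2. Past both thresholds were 9 entries, of 8 genes: 7 in PT, namely Gdf15, Cdkn1a, Rb1, Mdm2, Trp53inp1, Trp53 and Bcl2l1, and 2 in Marco, namely Cdkn2d and Cdkn1a. Lmnb1 and Plaur did not pass in any cluster. Of all entries, 57.2% in PT and 22.9% in Marco were also higher past both thresholds. The share of all entries that were higher ranged from 6.35% in Neutro to 78.4% in PT, and was 58.3% in Marco. The members were chosen with earlier results of these data known, so their shared direction is a description and not evidence of one.

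**Figure D1:**
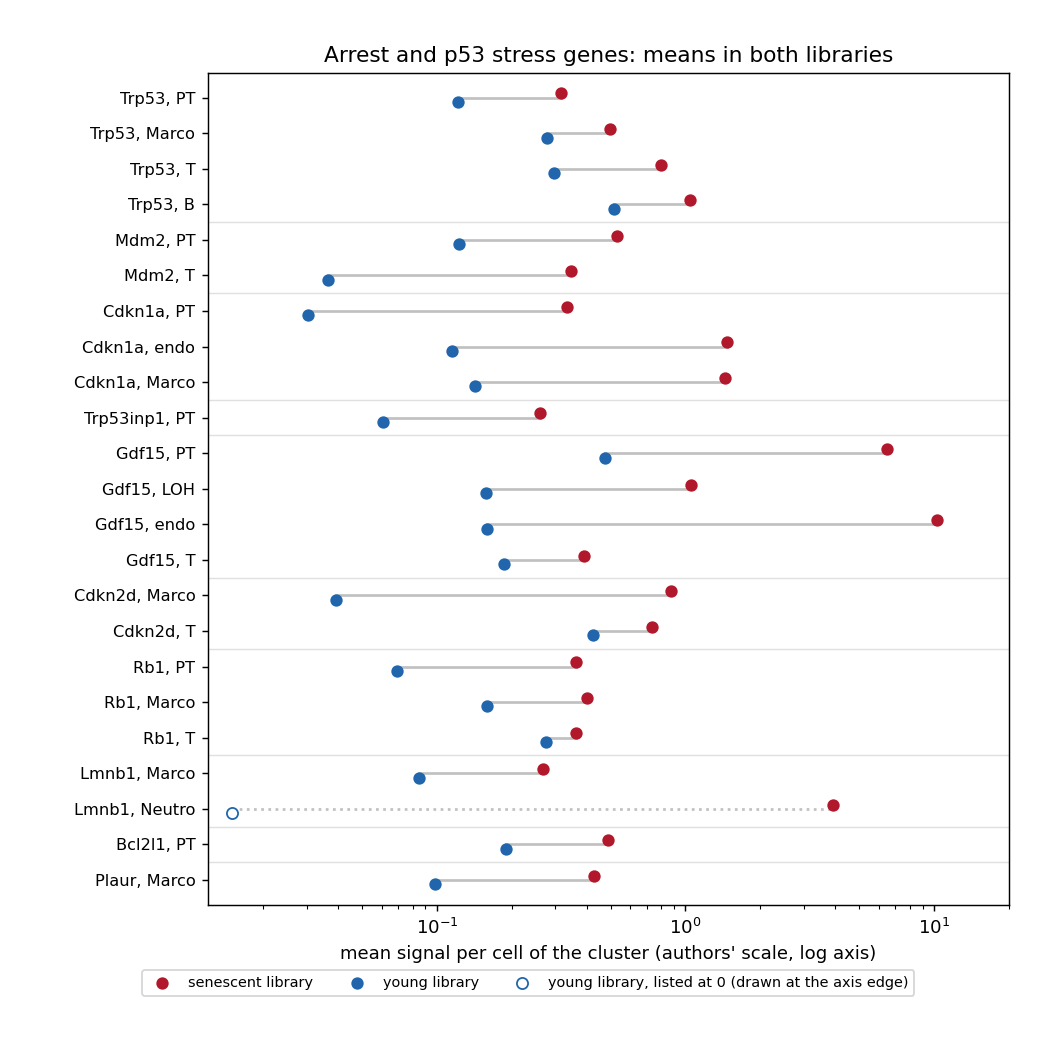
Mean signal of each of the 10 genes in each cluster that lists it, in the senescent library (red) and the young library (blue), on a log axis without error bars because each point is 1 library. In all 23 entries the red point lies to the right of the blue one, and the gap is widest for Gdf15 in endo (10.3 in the senescent and 0.159 in the young library), apart from Lmnb1 in Neutro, whose young mean was listed at 0.

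Trp53 was listed in 4 clusters, the most of any member together with Gdf15. Its mean in PT was 0.315 in the senescent library and 0.122 in the young library, a 2.59-fold difference with an adjusted p of 2.21e-63 in the authors' deposited table. In T the means were 0.795 in the senescent and 0.297 in the young library (2.68-fold), in B 1.04 in the senescent and 0.517 in the young library (2.02-fold) and in Marco 0.498 in the senescent and 0.276 in the young library (1.80-fold). The order of the clusters was the same in both libraries, with Trp53 highest in B, then T, Marco and PT. In T, B and Marco the authors' deposited table gives an adjusted p of 1, and with no spread between mice no neighbours in that order can be said to differ.

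Mdm2, which encodes the ligase that marks p53 for degradation, was listed in PT and T. In PT it had a mean of 0.531 in the senescent library and 0.122 in the young library, 4.34-fold higher, with an adjusted p of 1.82e-171 in the authors' deposited table. In T it stood at 0.347 in the senescent library and 0.0364 in the young library, 9.54-fold higher, with an adjusted p of 1 in the authors' deposited table. The fold of Mdm2 was greater than that of Trp53 in both clusters that list the pair, but in T the order rested on the low young mean of Mdm2: with a pseudocount of 1 the log2 ratio there was 0.38 for Mdm2 and 0.47 for Trp53.

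Cdkn1a, the gene of p21, was between 10.1-fold and 12.7-fold higher in the 3 clusters that list it. In PT its mean was 0.333 in the senescent library and 0.0303 in the young library, a 10.97-fold difference with an adjusted p of 7.5e-110 in the authors' deposited table. In Marco it was 1.44 in the senescent library and 0.142 in the young library, a 10.1-fold difference with an adjusted p of 1.78e-11 in the authors' deposited table. In endo the values were 1.47 in the senescent library and 0.116 in the young library, a 12.7-fold difference, with an adjusted p of 1 in the authors' deposited table. The level in PT was the lowest of the 3 clusters in both libraries, and the levels in endo and Marco lay close together. Trp53inp1, a p53 target whose product acts in autophagy and in the p53 response itself, was listed in PT alone, at 0.260 in the senescent library and 0.0609 in the young library. This 4.27-fold difference had an adjusted p of 5.71e-80 in the authors' deposited table.

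Gdf15 encodes a secreted cytokine of the TGF-beta superfamily that is induced by p53 and by the integrated stress response and signals through the receptor Gfral in the brainstem. It was listed in the tubule clusters PT and LOH, in endo and in T. In PT its mean was 6.47 in the senescent library and 0.476 in the young library, a 13.6-fold difference with an adjusted p listed as 0 in the authors' deposited table. In LOH it was 1.05 in the senescent library and 0.158 in the young library, 6.66-fold higher, with an adjusted p of 1 in the authors' deposited table. The highest level of Gdf15 was in endo, at 10.3 in the senescent library, against 0.159 in the young library. That 64.8-fold difference had an adjusted p of 0.531 in the authors' deposited table, where only 10 of the 1028 entries of endo passed 0.05. In T the means were 0.390 in the senescent library and 0.186 in the young library, 2.09-fold higher. In the senescent library the order was endo, PT, LOH and T, whereas in the young library PT was highest and T, endo and LOH lay between 0.158 and 0.186.

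Cdkn2d encodes p19INK4d, an inhibitor of the kinases Cdk4 and Cdk6, and was listed in Marco and T. In Marco it had a mean of 0.874 in the senescent library and 0.0393 in the young library, a 22.3-fold difference with an adjusted p of 3.65e-12 in the authors' deposited table. In T it was 0.736 in the senescent library and 0.425 in the young library, 1.73-fold higher. The senescent means of both clusters were close, and the young mean was lower in Marco than in T. Rb1, which restrains E2F when the CDKs are inhibited, was at 0.364 in the senescent and 0.0691 in the young library in PT, a 5.27-fold difference with an adjusted p of 1.36e-127 in the authors' deposited table. In Marco Rb1 had a mean of 0.403 in the senescent and 0.160 in the young library (2.53-fold), and in T it had 0.362 in the senescent and 0.275 in the young library (1.32-fold). The senescent means of Rb1 thus lay between 0.362 and 0.403 in the 3 clusters, while the young means ranged from 0.0691 to 0.275.

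Lmnb1 encodes lamin B1 of the nuclear lamina, and its loss is a known mark of senescent cells in culture. Both of its entries ran the other way. In Marco the mean was 0.268 in the senescent library and 0.0848 in the young library, 3.16-fold higher, with an adjusted p of 1 in the authors' deposited table. In Neutro it was listed at 3.93 in the senescent library and at 0 in the young library, also with an adjusted p of 1 in the authors' deposited table. The smallest young mean above 0 in Neutro was 1.07, so low young levels were hardly resolved there and no fold is given. Lmnb1 was not listed in PT or LOH.

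Bcl2l1 encodes BCL-XL, which protects cells from mitochondrial apoptosis and is a known survival factor of senescent cells. It was listed in PT only, at 0.488 in the senescent library and 0.190 in the young library, a 2.56-fold difference with an adjusted p of 5.13e-118 in the authors' deposited table. Plaur encodes the urokinase receptor, a surface protein of myeloid and injured cells that has also been used as a surface mark of senescent cells. Its single entry was in Marco, at 0.427 in the senescent library and 0.0983 in the young library, a 4.35-fold difference with an adjusted p of 1 in the authors' deposited table. Neither gene had an entry in LOH, endo, T, B or Neutro.

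The shared direction has to be read against what each cluster lists. In PT 7 of 7 members were higher past a log2 fold change of 1, and so were 57.2% of all 5037 entries of PT. Requiring the adjusted p of the authors' deposited table as well left the same 7 members and the same 57.2% in PT. Among the 3597 entries of PT whose young mean lay in the range of the 7 members, from 0.0303 to 0.476, 94.4% were higher and 72.8% were higher past that fold. The median log2 fold change in the authors' deposited table was 2.12 for the 7 members, 1.54 for those 3597 entries and 1.22 for all of PT. Gdf15 ranked 57 and Cdkn1a 80 by log2 fold change among the 5037 entries, whereas Trp53 and Bcl2l1 stood near the middle, above 55.6% and 55.0% of the entries. A higher mean of Trp53 or Bcl2l1 in PT was therefore what most entries of similar level showed.

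In Marco 5 of 6 members were higher past the fold, against 47.6% of its 4462 entries, and 2 of 6 passed the adjusted p too, against 22.9%. Among the 1760 entries of Marco with a young mean in the range of the 6 members, 74.5% were higher past the fold. Cdkn2d ranked 82 and Cdkn1a 241 among all entries of Marco, and Trp53 lay just below their middle, above 48.9% of them. In T 3 of 5 members passed the fold, against 25.8% of 4368 entries, or 30.5% of the 2180 entries in the young range of the members, and 0 of 5 passed the adjusted p too, against 3.85%. Mdm2 ranked 125 in T, above 97.1% of the entries, and Rb1 was above 56.8%. In B the single member, Trp53, passed the fold, as did 16.3% of 3077 entries, and did not pass the adjusted p, which 2.79% did with that fold. In LOH Gdf15 passed the fold, as did 27.5% of 1761 entries, and was not among the 2.16% that also passed the adjusted p. In endo Cdkn1a and Gdf15 passed the fold, as did 41.4% of 1028 entries, and were not among the 0.389% that also passed the adjusted p. In Neutro Lmnb1 passed the fold, as did 5.29% of 378 entries, while 0% passed both thresholds.

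**Figure D2:**
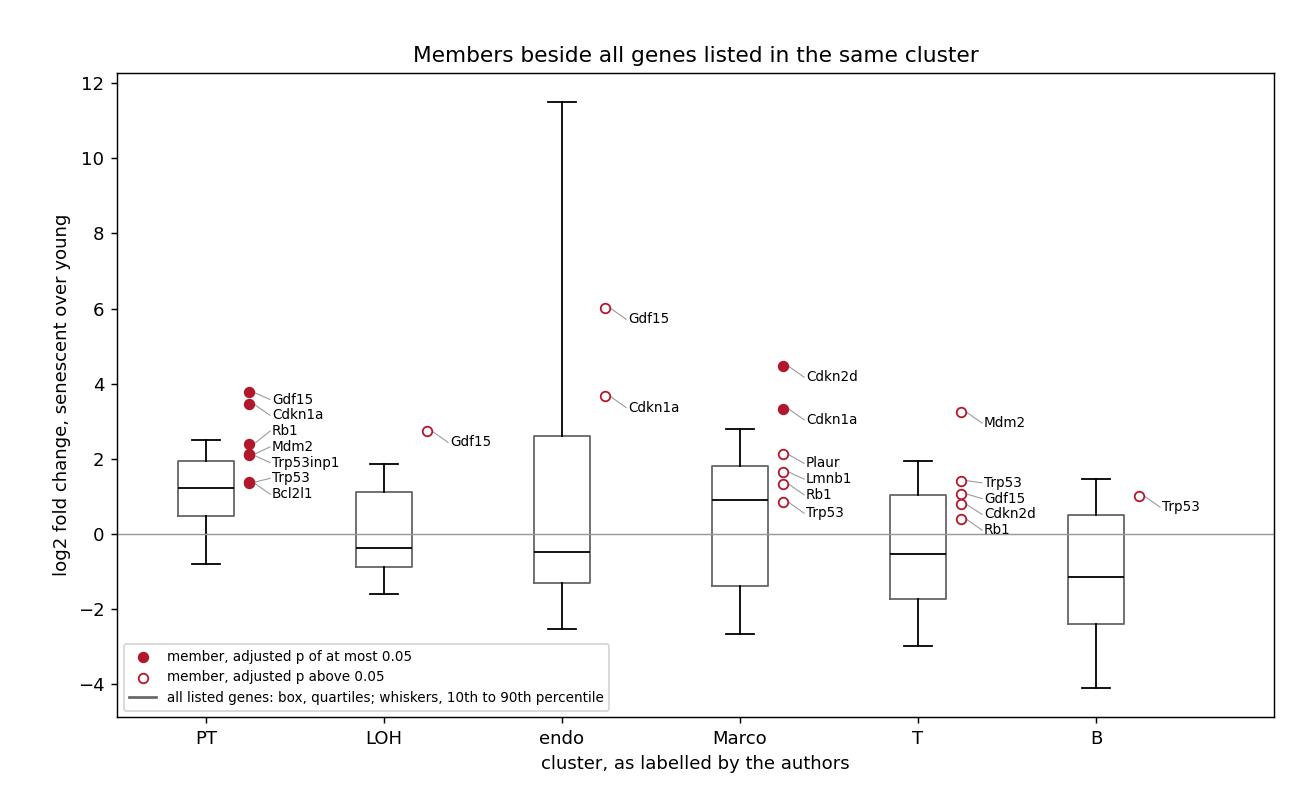
Log2 fold change of the senescent over the young mean, as the authors' deposited table gives it, for the members (points, filled where the adjusted p is at most 0.05) and for all entries of the same cluster (box with quartiles and median, whiskers from percentile 10 to percentile 90). Cdkn1a and Gdf15 in PT, Cdkn2d and Cdkn1a in Marco, Gdf15 in LOH and Mdm2 in T lie above the upper whisker, whereas Trp53 and Bcl2l1 in PT and Trp53 in Marco lie inside the box. Neutro is left out, since the young mean of its only member was listed at 0.

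Markers of several cell types moved with these genes in the immune clusters and in LOH, and their part in the results was not tested. In Marco the 10 macrophage or monocyte markers summed to 184 in the senescent and 31.7 in the young library, with a median log2 fold change of 2.69 in the authors' deposited table. In the same cluster the 13 listed proximal tubule markers were all lower, with a sum of 25.7 in the senescent library and 814 in the young library. Kap, an androgen-induced tubule gene, made up most of the young sum, and without it the other 12 summed to 23.4 in the senescent and 172 in the young library. The T cell markers in T summed to 64.4 in the senescent and 17.7 in the young library, and the 14 proximal tubule markers there to 24.4 in the senescent and 654 in the young library, or 21.5 in the senescent and 149 in the young library without Kap. For B the sums were 77.6 in the senescent and 33.2 in the young library for the B cell markers, and 26.0 in the senescent and 657 in the young library for the 13 listed proximal tubule markers, or 24.7 in the senescent and 158 in the young library without Kap. Of the 4 neutrophil markers listed in Marco, 3 were higher and 1 was lower. S100a8 was at 4.34 in the senescent library and listed at 0 in the young library. S100a9 was at 1.93 in the senescent and 0.0191 in the young library, and both were higher past both thresholds. G0s2 was lower past both thresholds, at 0.329 in the senescent and 0.895 in the young library. In LOH the macrophage or monocyte markers C1qa (0.471 in the senescent and 0.0110 in the young library) and Lyz2 (0.665 in the senescent and 0.0783 in the young library) were higher without passing. The 12 proximal tubule markers listed in LOH were all lower, 9 of them past both thresholds. They summed to 16.4 in the senescent and 267 in the young library, or 14.9 in the senescent and 64.3 in the young library without Kap. Umod was higher in LOH past both thresholds, at 148 in the senescent and 47.6 in the young library. Relative to the median of a cluster's own markers, Cdkn1a and Cdkn2d stayed higher in Marco and Mdm2 stayed higher in T, while Trp53, Rb1, Lmnb1 and Plaur in Marco, Trp53, Gdf15, Cdkn2d and Rb1 in T, and Trp53 in B came out lower. In PT the 13 listed tubule markers summed to 237 in the senescent and 900 in the young library. That direction came from Kap (21.4 in the senescent and 719 in the young library). The other 12 summed to 215 in the senescent and 181 in the young library, with 6 higher and 6 lower. The higher senescent sum of those 12 rested in turn on Gpx3, at 126 in the senescent and 62.7 in the young library.

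Tubule markers were listed in every cluster. For the 5 members listed both in PT and elsewhere, Gdf15, Cdkn1a, Trp53, Rb1 and Mdm2, the level outside PT was therefore expressed as a percentage of its level in PT and set beside the same percentage for the proximal tubule markers. Gdf15 in T was at 6.03% of its PT level in the senescent library and 39.2% in the young library. The 13 tubule markers listed in both clusters ranged from 6.09% to 15.0% in the senescent library and from 49.5% to 183% in the young library, so Gdf15 in T lay just under the lowest tubule marker in both. In LOH, Gdf15 was at 16.3% of its PT level in the senescent library and 33.2% in the young library, inside the range of 11 tubule markers (6.54% to 18.1% in the senescent and 28.1% to 121% in the young library). The lowest of these in the young library was Kap, and without it the range began at 34.1%, just above Gdf15. In the senescent library only Slc5a2, at 18.1%, was above Gdf15 in LOH. Relative to PT, Gdf15 in LOH thus lay near the bottom of the tubule markers in the young library and near their top in the senescent library. Neither the LOH nor the T entry of Gdf15 exceeded the highest tubule marker. The part of proximal tubule signal in these entries was not tested.

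In endo Gdf15 stood at 159% of its PT level in the senescent library, above all 6 tubule markers listed in both clusters (20.1% to 80.7%), and at 33.5% in the young library, below all 6 (40.8% to 143%). Cdkn1a in endo was at 441% of its PT level in the senescent library and 381% in the young library, above every tubule marker in both. In Marco Cdkn1a was at 432% in the senescent and 469% in the young library, and Trp53 and Rb1 were at 158% and 111% in the senescent and 227% and 231% in the young library. The 12 tubule markers in Marco reached at most 15.96% in the senescent and 209% in the young library. Trp53 in T was at 252% in the senescent and 244% in the young library, and in B at 331% in the senescent and 425% in the young library. Rb1 in T was at 99.3% in the senescent and 397% in the young library. Mdm2 in T was at 65.4% of its PT level in the senescent library, above the tubule markers, and at 29.8% in the young library, below them. These percentages are a description of 1 library each.

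**Figure D3:**
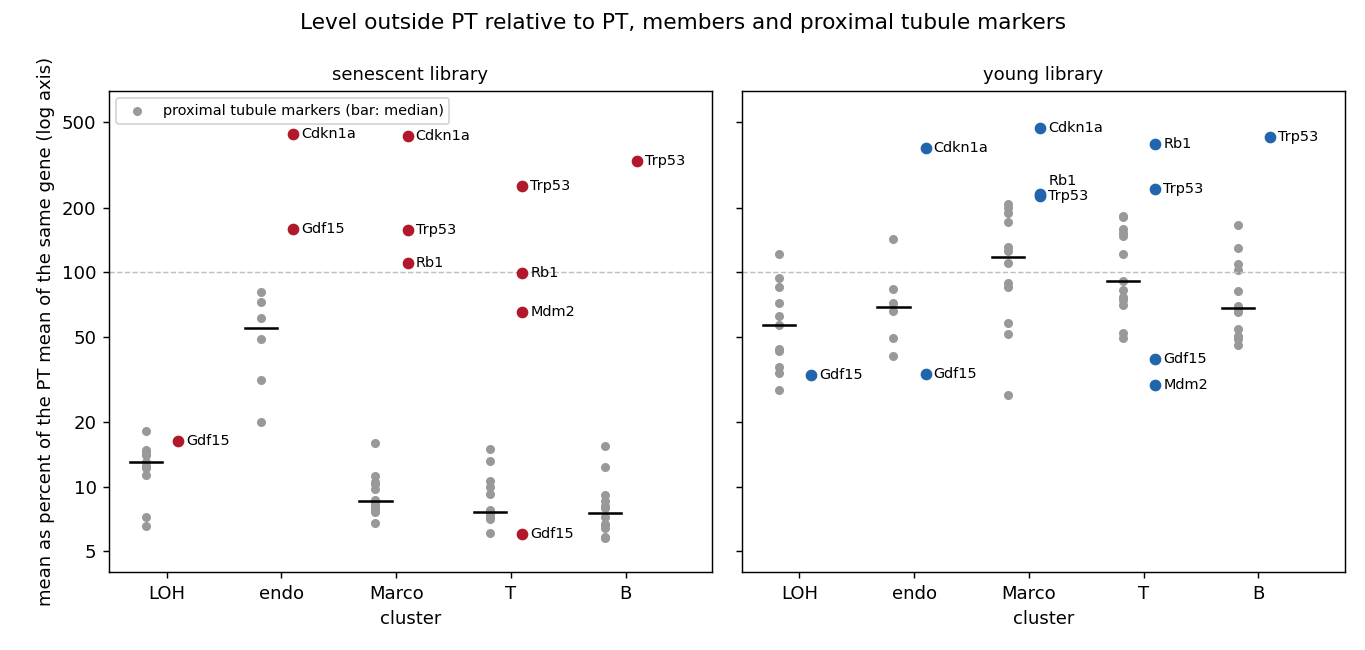
Mean of a gene in each of 5 clusters as a percentage of its mean in PT, on a log axis, in the senescent library (left) and the young library (right), for the 5 members with an entry in PT and elsewhere (coloured) and for proximal tubule markers (grey, with a bar at their median). Gdf15 in T lies just under the tubule markers in both libraries. Gdf15 in LOH lies near their lower end in the young library and near their upper end in the senescent library. Cdkn1a in endo and Marco and Trp53 in T and B lie above the tubule markers in both libraries.

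The wider pathway was described by 10 companion lists, which hold the members together with related genes. Their counts stand beside the shares of all entries that were higher and that were higher past both thresholds. These shares were 78.4% and 57.2% in PT, 58.3% and 22.9% in Marco, and 44.8% and 3.85% in T. They were 47.8% and 2.16% in LOH, 28.2% and 2.79% in B, and 6.35% and 0% in Neutro. Among the 3597 PT entries in the young range of the members, 94.4% were higher and 72.8% higher past the fold. Most upstream were p53 and its regulators, of which 8 of 16 were listed in PT, all 8 higher and 7 past both thresholds. Mdm4, a relative of Mdm2 that also inhibits p53, had a mean of 0.543 in the senescent and 0.0829 in the young library in PT. Ep300, an acetyltransferase that co-activates p53, had 0.723 in the senescent and 0.126 in the young library, and the damage-sensing kinase gene Atr had 0.223 in the senescent and 0.0480 in the young library. In Marco 3 regulators were listed, all higher and 1 past both thresholds, which was Ep300 at 1.28 in the senescent and 0.299 in the young library. In T 4 of 5 listed regulators were higher, in B 2 of 3 and in Neutro 0 of 1, and none of these passed both thresholds. Of this list 8 genes had no entry in any cluster, among them Cdkn2a, the gene of p16INK4a and p19ARF.

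Among p53 targets of arrest and repair, 11 of 16 were listed in PT, all higher and 10 past both thresholds, with a median log2 fold change of 2.26 in the authors' deposited table against 1.22 for all of PT. The 3597 PT entries in the young range of the members had a median of 1.54. All the listed targets but Plk2 had a young mean in that range. Btg2, an anti-proliferative p53 target that is also an immediate early gene, was 56.4-fold higher in PT, at 1.97 in the senescent and 0.0349 in the young library. Plk2, a kinase induced by p53, was at 0.270 in the senescent and 0.0157 in the young library, and Zmat3, an RNA-binding p53 target, was at 0.313 in the senescent and 0.0452 in the young library. In LOH all 3 listed genes of this list were higher, with Btg2 past both thresholds at 2.49 in the senescent and 0.368 in the young library. Marco went both ways. There Btg2 (7.39 in the senescent and 1.16 in the young library) and Cdkn1a were higher past both thresholds, and the other 4 listed genes were lower without passing. The median of the list in Marco was -0.71 in the authors' deposited table, against 0.91 for all of Marco.

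The p53 targets of metabolism and stress were sparse, with 4 of 18 listed in PT. All 4 were higher and 2 passed both thresholds, no larger a share than the 57.2% of all PT entries. The 2 were Gdf15 and Sesn2, a stress-induced inhibitor of mTORC1 signalling, at 0.504 in the senescent and 0.0966 in the young library. In Marco 3 were higher and 3 lower. Pltp, a phospholipid transfer protein that macrophages make, was at 4.53 in the senescent and 0.171 in the young library. Perp, an epithelial p53 target, was lower in Marco at 0.0318 in the senescent and 0.401 in the young library, and the mitochondrial enzyme gene Aldh4a1 was lower there at 0.146 in the senescent and 0.751 in the young library. In T 1 of the 4 listed genes was higher, Gdf15, and 0 of 4 passed both thresholds.

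The BCL2 family, to which Bcl2l1 belongs, had 5 higher and 2 lower of 7 listed genes in PT, 3 of them higher past both thresholds. Its median log2 fold change there, 0.63 in the authors' deposited table, was below the 1.22 of all of PT. Mcl1, another anti-apoptotic member, was at 1.87 in the senescent and 0.584 in the young library in PT, and the pro-apoptotic p53 target Pmaip1 was at 0.244 in the senescent and 0.0541 in the young library. In Marco 7 of 9 listed genes were higher and 6 of these passed, with a median of 2.52 in the authors' deposited table against 0.91 for all entries. They included both anti-apoptotic and pro-apoptotic genes: Mcl1 was at 7.40 in the senescent and 1.10 in the young library, Bcl2a1b at 2.94 in the senescent and 0.328 in the young library, Pmaip1 at 0.627 in the senescent and 0.0607 in the young library, and Bcl2l11, the gene of the cell-death activator BIM, at 0.578 in the senescent and 0.0780 in the young library.

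Of 8 CDK inhibitors, 3 were listed in PT and all passed both thresholds as higher. Besides Cdkn1a they were Cdkn1b, the gene of p27, at 0.435 in the senescent and 0.0920 in the young library, and Cdkn2c, the gene of p18INK4c, at 0.212 in the senescent and 0.0941 in the young library. In endo, of 2 listed CDK inhibitors, 1 was higher, Cdkn1a, and 1 was lower, neither past both thresholds. The RB, E2F, cyclin and CDK list also had higher means in PT, in 7 of 7 listed of 18 genes, with 4 past both thresholds. Cyclin D1, whose gene Ccnd1 drives the opposite step of the cycle by activating Cdk4 and Cdk6, was 17.04-fold higher in PT, at 4.21 in the senescent and 0.247 in the young library. Ccnd1 also passed in LOH, at 4.89 in the senescent and 1.75 in the young library. Cdk6 (0.317 in the senescent and 0.0659 in the young library) and the Rb1 relative Rbl2 (0.393 in the senescent and 0.0967 in the young library) were higher in PT. The share of the list past both thresholds, 4 of 7, was about that of all PT entries, 57.2%.

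Proliferation genes were mostly without an entry, with 10 of 18 listed in no cluster, among them the cell-cycle markers Mki67 and Cdk1. Marco listed 4 of them, all higher past both thresholds, namely Hmgb2 (4.06 in the senescent and 1.12 in the young library), Tubb5 (2.15 in the senescent and 0.471 in the young library), H2az1 (10.4 in the senescent and 3.38 in the young library) and the replication clamp gene Pcna (0.778 in the senescent and 0.174 in the young library). In PT Hmgb2 passed as well, at 1.33 in the senescent and 0.249 in the young library. Of the 10 genes of the lamina list, which also holds the chromatin protein gene Hmgb1, 7 were listed in PT, all higher and 3 past both thresholds. These 3 were Tmpo (0.592 in the senescent and 0.155 in the young library), which encodes the lamina-associated protein LAP2, Sun1 and Hmgb1 itself. Hmgb1 was at 6.97 in the senescent and 2.40 in the young library. The median of the lamina list in PT was 0.98 in the authors' deposited table, below that of all of PT. In Marco the 6 listed lamina genes, Lmnb1 among them, were all higher and 0 of 6 passed.

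The urokinase system was listed with few genes. Plau, which encodes urokinase, the ligand of Plaur, was higher in PT at 1.56 in the senescent and 0.277 in the young library, and lower in Marco at 0.190 in the senescent and 0.675 in the young library. Without passing both thresholds, Plau was also higher in endo and lower in T and B. Differences between clusters were not tested. Itgam, an integrin subunit gene of myeloid cells whose product partners with the urokinase receptor, was at 2.50 in the senescent and 0.164 in the young library in Marco, and Lrp1, an endocytic receptor gene for urokinase complexes, was at 2.28 in the senescent and 0.184 in the young library. Genes of the integrated stress response, the other known route to Gdf15, were higher in 6 of 6 listed of 12 genes in PT and in 4 of 4 in Marco, with 3 past both thresholds in each. The share past both thresholds in PT, 3 of 6, was below the 57.2% of all entries, and the median log2 fold change of the list there was 1.24 in the authors' deposited table, beside 1.22 for all of PT. In PT Ppp1r15a, the gene of GADD34, was at 0.296 in the senescent and 0.0331 in the young library, and Cebpb was at 2.17 in the senescent and 0.6996 in the young library. In Marco Atf3 was at 2.87 in the senescent and 0.218 in the young library and Cebpb at 13.01 in the senescent and 1.68 in the young library.

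**Figure D4:**
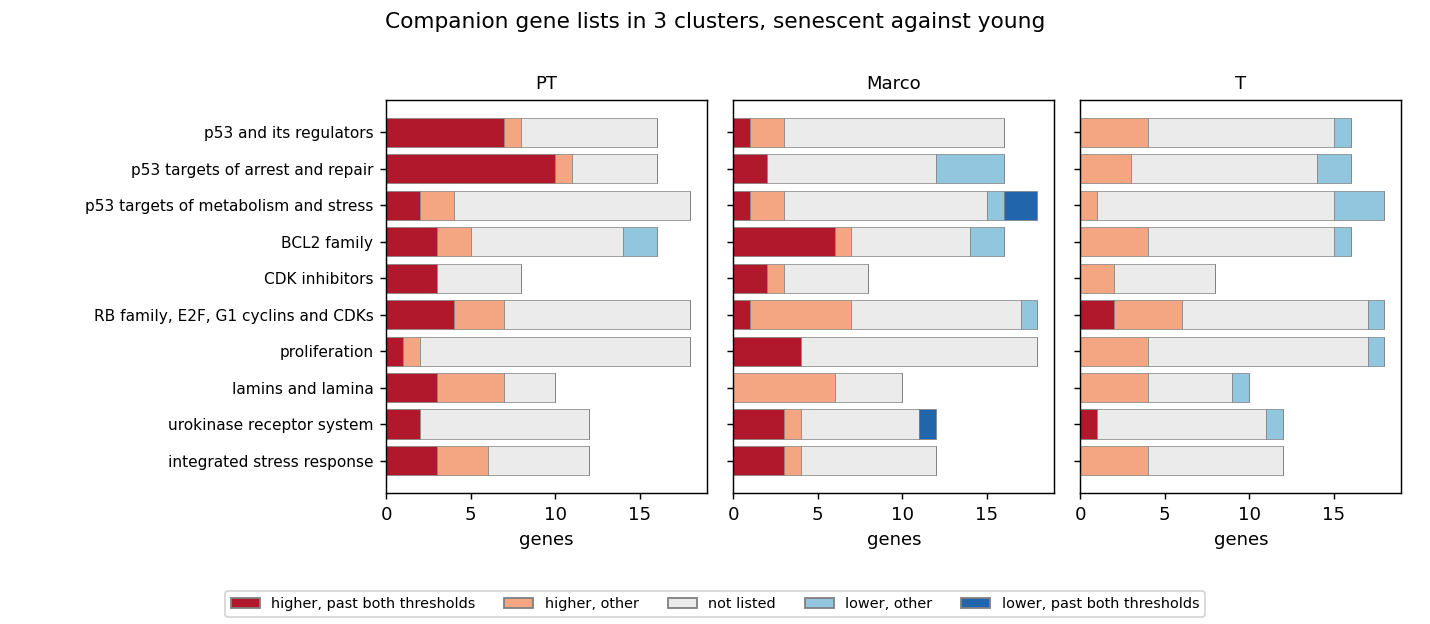
Number of genes of each companion list, in PT, Marco and T, that were higher in the senescent library past both thresholds (dark red), higher otherwise (orange), without an entry (grey), lower otherwise (light blue) or lower past both thresholds (dark blue). In PT all 11 listed p53 targets of arrest and repair were higher and 10 passed, whereas in Marco 2 of 6 were higher, and in T no list had a gene lower past both thresholds.

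For the 2 members with entries in 4 clusters, the genes with the nearest log2 fold changes were sought among the genes listed in the same clusters, by the root mean square difference of the log2 fold changes in the authors' deposited table. Nearest to Trp53 over PT, Marco, T and B, among 1327 genes, were the ribosomal protein gene Rpl23a at a distance of 0.13, Serbp1 at 0.15 and Ik at 0.19. Their log2 fold changes in the authors' deposited table lay between 0.87 and 1.45, and those of Trp53 between 0.85 and 1.42. Gdf15 had no such close neighbour among 229 genes listed in PT, LOH, endo and T. The nearest were Birc2 at a distance of 1.11, Nuak2 at 1.32 and the immediate early gene Jun at 1.35. Nuak2 went the other way from Gdf15 in T, with a log2 fold change of -0.61 in the authors' deposited table. Jun, which also responds to tissue dissociation, had log2 fold changes of 4.79 in PT, 2.18 in LOH, 3.59 in endo and 1.35 in T in the authors' deposited table, against 3.77, 2.74, 6.02 and 1.07 for Gdf15. The part of dissociation in these values was not tested.

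All 10 members are annotated as protein coding in the RefSeq annotation of GRCm38, the assembly that mm10 names, and their values were not split by transcript. Cdkn1a lies on chromosome 17 from 29090979 to 29100722 and Gdf15 on chromosome 8 from 70629393 to 70632470. Trp53 lies on chromosome 11 from 69580348 to 69591873, and Mdm2 on chromosome 10 from 117688875 to 117710758. Trp53inp1 is on chromosome 4 from 11156441 to 11174379, Bcl2l1 on chromosome 2 from 152758732 to 152833803 and Rb1 on chromosome 14 from 73192858 to 73325951. Cdkn2d is on chromosome 9 from 21288459 to 21291421, Plaur on chromosome 7 from 24460937 to 24475970 and Lmnb1 on chromosome 18.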

How the data were processed

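Kidney cells of senescent and of young mice were profiled with 1 library per group. The submitters' processing notes name Cell Ranger 2.1.1 and the build mm10. Cell filters, doublet treatment, clustering and the test are not stated in the labels or the files. The group columns of the deposited table hold a mean signal per cell of a cluster in each library, on the authors' own scale. They were assigned to libraries by the labels' descriptions, since the contrast name in the table names neither group. The authors' log2 fold changes can be recomputed from the senescent and young means with 0.0001 added to each, within 0.01, in every entry but 1, which is no member's. The p-values in the deposited table are the authors' own and rest on no replicate libraries.

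Computed here, with Python 3.11.15, numpy 2.4.6, pandas 2.3.3 and matplotlib 3.10.9, were ratios of means, counts, medians, ranks and percentages of the PT mean, and the code was checked on made-up data. No test between groups was run. The members and the 10 companion lists were chosen with earlier results of these data known. The listed members of each list are those with an entry, and 1 older symbol was updated to H2az1 through the RefSeq gene table. Named in the text are all members, up to 4 genes per list and cluster with an adjusted p of at most 0.05, 0.1 or more as the larger mean and the largest log2 fold changes, up to 3 nearest genes, and markers. Cdkn2a, Mki67 and Cdk1 fall outside that rule and were chosen after their absence from the listed entries was seen. Depth is unknown, so no counting interval is given. Alternatives tried were other thresholds, pseudocounts and centrings.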

Additional observations from a re-analysis of the deposited data

Results flagged for a closer look

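Plau, which encodes urokinase, passed both thresholds in opposite directions in PT and in Marco, and was the only companion gene to do so among the 52 that passed in any cluster. Its mean in PT was 1.56 in the senescent and 0.277 in the young library, and in Marco it was 0.190 in the senescent and 0.675 in the young library. The log2 fold changes of the authors' deposited table differed by 4.32 between the clusters. That difference was not tested, since each group had 1 library. The lower mean was not particular to Marco. Plau was also lower in T (0.0686 in the senescent and 0.487 in the young library) and B (0.121 in the senescent and 0.537 in the young library). In endo it was higher (1.56 in the senescent and 0.106 in the young library). None of these 3 entries passed both thresholds.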

How the results depend on the processing

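The count of 9 member entries past both thresholds was 9 at an adjusted p of at most 0.01, without a minimum fold, for entries whose larger mean reached 0.1 and, chosen after seeing the data, without Neutro and endo. It was 7 at a log2 fold change of at least 2 and 20 without the adjusted p. The median log2 ratio over entries, 2.12, was 1.41 with a pseudocount of 0.1, 0.38 with a pseudocount of 1 and 1.60 less the median of all entries of the cluster. With both pseudocounts 23 entries stayed above 0. Centring on all entries left 22 above 0, the exception being Trp53 in Marco at -0.058. Centring on a cluster's own markers, chosen after seeing the data and possible for 21 entries outside endo, gave a median of 1.10 with 12 above 0. The others were, in Marco, Trp53 (-1.84), Rb1 (-1.35), Lmnb1 (-1.03) and Plaur (-0.57), in T, Rb1 (-1.39), Cdkn2d (-0.99), Gdf15 (-0.72) and Trp53 (-0.36), and, in B, Trp53 (-0.23). The median of the own markers was -0.46 in PT, so this centring raised all 7 entries of PT, which are among the 12 above 0. That median rested on 1 listed marker in LOH, Umod, and on 2 in Neutro. Of 18 list medians over at least 5 listed genes, 17 were above 0, also with a pseudocount of 1 and with the minimum mean. Leaving Kap out of the tubule markers, chosen after seeing the data, turned the direction of their sum in PT (215 in the senescent and 181 in the young library), in endo (135 in the senescent and 106 in the young library) and in Neutro (14.6 in the senescent and 9.06 in the young library). In each of these clusters the turned sum rested on Gpx3, the only one of the rest that was higher in endo and Neutro. No paired analysis was possible because each group had 1 library. Depth is unknown, and low means such as that of Cdkn1a in young PT carry an unknown counting error.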

Other observations

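Gadd45a, a growth-arrest and DNA-damage gene induced by p53 and chosen here after its values were seen, was higher in the senescent library in PT (0.850 in the senescent and 0.346 in the young library), LOH (0.803 in the senescent and 0.374 in the young library) and endo (1.22 in the senescent and 0.0579 in the young library). It was lower in Marco (0.102 in the senescent and 0.350 in the young library), T (0.0972 in the senescent and 0.346 in the young library) and B (0.0996 in the senescent and 0.756 in the young library). Its adjusted p in the authors' deposited table was at most 0.05 in PT only, and the difference between clusters was not tested.

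The deposited table annotates 37 of its genes to the p53 signaling pathway, 4 of them members, and 100 to cellular senescence, also with 4 members. These sets were looked at after the values above were seen. Of the 26 p53 pathway genes listed in PT, 24 were higher in the senescent library, and 18 were higher and 1 lower past both thresholds, where 78.4% of all PT entries were higher and 57.2% higher past both thresholds. In Marco 18 of 26 were higher, with 7 higher and 2 lower past both thresholds, where 58.3% of all Marco entries were higher and 22.9% higher past both thresholds. In T 16 of 23 were higher (44.8% of all entries), in B 5 of 13 (28.2%), in LOH 6 of 7 (47.8%), in endo 3 of 5 (48.2%) and in Neutro 0 of 2 (6.35%). The median log2 fold changes in the authors' deposited table were 1.38 in PT, 1.11 in Marco, 0.83 in T and -0.99 in B, beside 1.22, 0.91, -0.54 and -1.15 for all entries of these clusters. Of the cellular senescence genes, 60 of 69 listed were higher in PT, 51 of 66 in Marco, 40 of 54 in T, 22 of 28 in LOH, 21 of 37 in B, 7 of 9 in endo and 0 of 2 in Neutro, beside those same shares of all entries. Their medians were 1.35 in PT, 1.33 in Marco, 1.02 in T, 1.12 in LOH, 0.53 in B, 3.67 in endo and -6.66 in Neutro in the authors' deposited table.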
